A study of Caenorhabditis elegans with 2 samples.

Results

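The genes described here are 10 members of the basic leucine zipper (bZIP) family of transcription factors of Caenorhabditis elegans: zip-2, jun-1, cebp-2, atf-7, atfs-1, skn-1, crh-1, zip-1, zip-10 and ces-2, of 19973 annotated protein-coding genes. They were chosen by name from genes whose signals and ranks in these same lists were already known, so their ranks and the counts that follow from them are a description and no test was made of them. For each gene, every summit in the gene body or within 5000 bp to either side was read from the chromatin immunoprecipitation sequencing (ChIP-seq) lists of tagged FOS-1. The animals were whole L4 larvae, the final larval stage, of mixed sex, from strain OP304, which carries unc-119(ed3) on chromosome III and wgIs304, an insertion that the labels tie to eGFP-tagged fos-1. All samples share this genotype and stage. There were 2 biological replicates and 1 group, no untagged strain or other condition was compared, and the labels name no other change to fos-1. Many animals and all tissues were pooled in each sample, so the cells in which a region was occupied are not known.

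Proteins of the bZIP family hold DNA with a basic stretch and pair through a leucine zipper, as a homodimer or with another member of the family. Fos proteins pair with Jun proteins to form AP-1, whose consensus site is TGACTCA, with TGAGTCA on the other strand. CREB-type members prefer the CRE site TGACGTCA, C/EBP-type members TTGCGCAA, and PAR-type members TTACGTAA. In the worm, several of these genes act in defence against pathogens and in stress responses, and fos-1 itself is known for its role in the anchor cell and in ovulation.

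Of the deposited lists on build ce11, the pooled list held 3527 regions, ranked here by the authors' signal. The set that passed the irreproducible discovery rate (IDR), a filter built on how alike the replicates rank regions, held its 248 highest. Membership was thus the same as a cut on pooled signal, and a region in the set need not rank alike in both replicates. For example, an IDR region of the bZIP gene cebp-1, of pooled rank 215, ranked 2065 in replicate 1 and 215 in replicate 2. Signal ran from 16.6 to 162 in the pooled list, with a median of 19.3, and the last region inside the IDR set had 31.07. The replicate 1 list held 30000 regions and the replicate 2 list 29345, background included, and 18 of the latter lay on mitochondrial DNA, all above rank 248. Replicate 2 ranks of leading regions are therefore also given among nuclear regions only. The scale of the signal is not stated, so a signal was read only within its own list. The number of reads behind a region is unknown, and the 2 replicate values printed for a region are the only view of its error.

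The strongest occupancy among the 10 genes was at zip-2, the only member with an IDR region in its window, against 3.46% of protein-coding genes, and the only one with an IDR summit in a promoter, against 0.806%. A promoter here runs from 1000 bp upstream to 200 bp downstream of any annotated 5′ end of the gene. It was also the only member with a region among the 248 highest of both replicate lists, against 1.4% of genes. In the longer pooled list, 9 of the 10 members, all but cebp-2, had a region within 5000 bp, against 33.8% of genes, and 7 had one in a promoter, against 7.67%. The 7 were zip-2, jun-1, atf-7, atfs-1, skn-1, crh-1 and zip-1. These shares were part of what the genes were chosen on and nothing is read from the excess. The members' windows were also longer than usual, with a median of 15728.5 bp against 12027 bp over all genes. Per 10 kb, they held 1.23 pooled regions against 0.352 in the nuclear genome. For the IDR set the densities were 0.102 against 0.0247, with all of the member regions in the zip-2 window. The densities were 5.11 against 2.99 for replicate 1 and 4.50 against 2.92 for replicate 2. The part of window length in the gene counts was not tested.

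The members' 24 pooled regions were mostly weak. The authors' −log10 q was at least 1 for 6 of the 24 (25%), against 11.7% of all pooled regions, and its median was 0.311 against 0.131. The 6 were 3 regions of zip-2 and 1 each of crh-1, atfs-1 and jun-1. Ordered by their best pooled rank, the members ran from zip-2 at 43 through crh-1 at 249, atfs-1 at 269, jun-1 at 410, atf-7 at 852, skn-1 at 922, zip-10 at 1011 and zip-1 at 1216 to ces-2 at 2867. The replicates did not keep that order. In replicate 1 the leading members were zip-2, crh-1 and atfs-1, and in replicate 2 they were zip-2, jun-1 and zip-1.

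**Figure D1:**
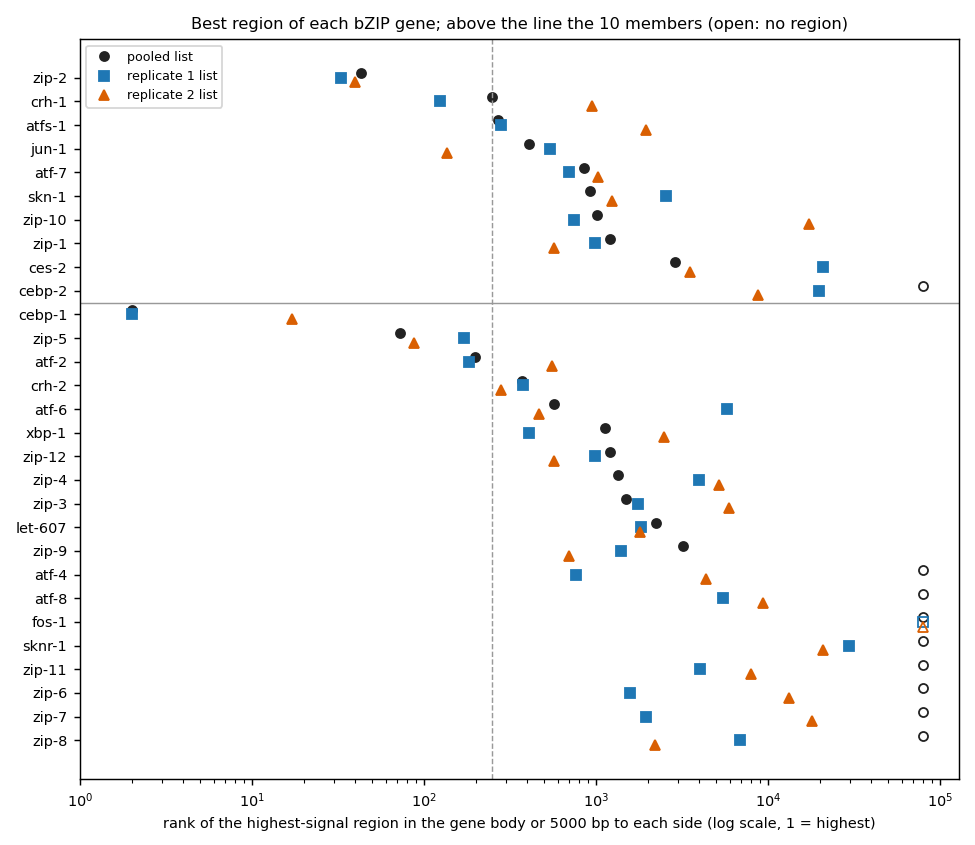
Rank of the highest-signal region in the gene body or 5000 bp to each side, for the 10 genes described (above the solid line) and 19 other bZIP genes, in the pooled list (circles), the replicate 1 list (squares) and the replicate 2 list (triangles), on a log scale on which 1 is the highest. Open symbols at the right mark genes with no region, and the dashed line marks the size of the IDR set, 248; of the 10 genes, zip-2 alone lies to the left of it in every list.

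zip-2 encodes a bZIP factor that switches on defence genes when bacterial toxins block protein synthesis in the intestine. The gene (WBGene00019327, chromosome III, 832982 to 835814, plus strand, ce11) has 3 annotated transcripts, which differ in their 5′ end. K02F3.4.3 starts at 832982 and runs over a long first intron, K02F3.4.1 starts 1106 bp downstream and K02F3.4.2 starts 1323 bp downstream. The stretches around the summits of both IDR regions are printed because they are the only ones of the 10 genes in that set, each as 100 bp to either side of the summit on the plus strand of the reference genome (WBcel235, the same as ce11). Capitals mark a looser AP-1 match, TGANTCA, found at 1 of the 2.
zip-2 intron, chrIII:833684-833884: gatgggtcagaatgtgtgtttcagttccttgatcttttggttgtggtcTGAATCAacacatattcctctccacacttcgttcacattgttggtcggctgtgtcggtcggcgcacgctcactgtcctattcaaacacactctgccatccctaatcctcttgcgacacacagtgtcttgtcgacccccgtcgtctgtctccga
zip-2 3′ side, chrIII:835891-836091: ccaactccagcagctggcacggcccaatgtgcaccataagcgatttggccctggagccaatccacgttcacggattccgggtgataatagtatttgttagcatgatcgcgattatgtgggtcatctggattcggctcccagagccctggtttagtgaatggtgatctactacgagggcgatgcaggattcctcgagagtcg

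The higher of these, at 835819 to 836162, had a pooled signal of 55.5 and rank 43. In replicate 1 the matching region had a signal of 35.4 and rank 33, and in replicate 2 a signal of 35.2 and rank 40, or 23 among nuclear regions. Its rank was thus high in both replicates, although its summit lay past the 3′ end of zip-2, in a coding exon of dos-3, which encodes a secreted protein related to Notch ligands and is read from the opposite strand. The closest 5′ end of a protein-coding gene belonged to zip-2 transcript K02F3.4.2, 1686 bp upstream of the summit, and the 5′ end of dos-3 lay 3600 bp away. The region held no match to any of the 6 motifs searched.

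The other IDR region, at 833612 to 833955, had a pooled signal of 50.2 and rank 55. Its summit lay in the long intron of K02F3.4.3 and 304 bp upstream of the 5′ end of K02F3.4.1, so the promoter it falls in is that of the shorter transcripts. The replicate 1 match had a signal of 31.7 and rank 43 with its summit 136 bp away, and the replicate 2 match had a signal of 26.1 and rank 92, or 75 among nuclear regions, with its summit 1 bp away. A weaker pooled region at 833812 to 834155 overlapped it, with a signal of 28.8 and rank 330, and both pooled regions matched the same replicate regions, so they are not separate evidence. The TGAATCA in the printed stretch lies 49 bp before the summit. The snoRNA gene K02F3.15 sits in the same intron and ends 175 bp from the summit.

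Weaker regions marked the 5′ end of the long transcript and the gene body. The region at 832921 to 833264, 111 bp downstream of the 5′ end of K02F3.4.3 and inside the overlapping non-coding gene linc-37, had a pooled signal of 25.3 and rank 545, with ranks of 1281 in replicate 1 and 495 in replicate 2. The region at 834936 to 835279, in a coding exon, had 20.7 and rank 1305, with ranks of 233 and 3335. Within the gene, the signal was therefore higher at the internal 5′ end and past the 3′ end than at the most upstream 5′ end, in the pooled list and in both replicates. The only exact AP-1 site in the window lay 2111 bp upstream of the gene and 2222 bp from the nearest pooled summit.

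**Figure D2:**
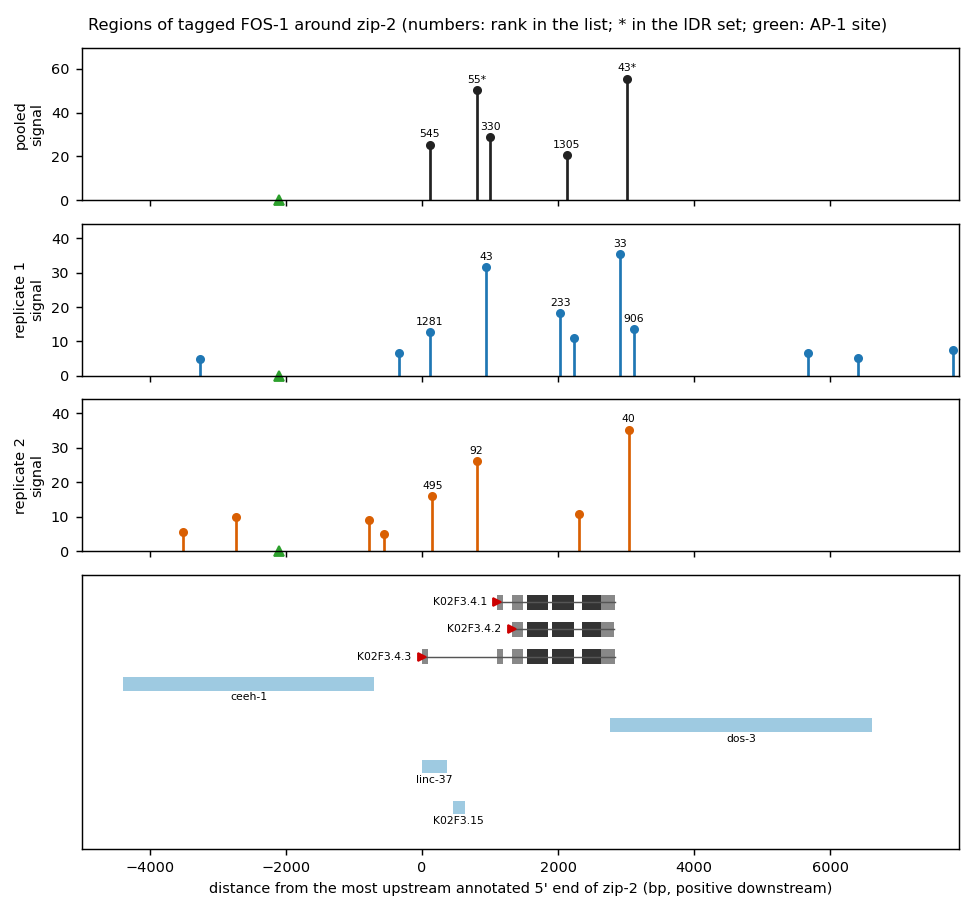
Authors' signal of each region around zip-2 in the pooled, replicate 1 and replicate 2 lists against distance from its most upstream 5′ end in bp, with the 3 transcripts (coding exons dark, untranslated exons grey, red arrowheads at the 5′ ends) and neighbouring genes in blue. Numbers give ranks (pooled regions, and replicate regions up to rank 1500), asterisks the IDR set and green triangles exact AP-1 sites; the regions ranked 55 and 43 in the pooled list have counterparts in both replicates at 43 and 92 and at 33 and 40.

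jun-1 encodes the worm Jun protein, and Jun proteins are the partners of Fos proteins in AP-1. The gene (WBGene00012005, chromosome II, 9113157 to 9132231, plus strand) has 9 transcripts with 9 different 5′ ends over 19075 bp. Its highest pooled region lay at the most upstream of these. The stretch before that 5′ end, the exact AP-1 site just after it and an intronic pair of AP-1 sites are printed because jun-1 is the only member with an exact AP-1 site within 100 bp of a pooled summit. Capitals mark TGACTCA, and all are on the plus strand.
jun-1 a upstream, chrII:9112968-9113156: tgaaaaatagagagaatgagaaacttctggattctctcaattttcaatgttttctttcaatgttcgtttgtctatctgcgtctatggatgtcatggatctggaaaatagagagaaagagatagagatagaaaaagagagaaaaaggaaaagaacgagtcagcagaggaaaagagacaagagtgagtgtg
jun-1 a AP-1 site, chrII:9113150-9113178: gagtgtgcgtgTGACTCAttctcggggcc
jun-1 d intronic pair, chrII:9127098-9127298: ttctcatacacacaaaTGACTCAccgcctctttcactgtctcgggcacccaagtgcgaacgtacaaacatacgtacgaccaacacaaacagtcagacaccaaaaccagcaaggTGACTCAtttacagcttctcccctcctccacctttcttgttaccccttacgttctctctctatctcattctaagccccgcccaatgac

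The region at 9112896 to 9113239 had a pooled signal of 27.3, rank 410 and a −log10 q of 1.03. Its summit was 89 bp upstream of transcript T24H10.7a, and the AP-1 site at 9113161 to 9113167 lay 7 bp into the 5′ UTR, 96 bp from the summit. The replicates differed widely here, with a signal of 22.5 and rank 137 (120 among nuclear regions) in replicate 2 and a signal of 7.93 and rank 8637 in replicate 1. The high rank at this jun-1 promoter was thus found in replicate 2 and not in replicate 1.

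The other jun-1 regions were weaker, and 2 of the 3 ranked high in a single replicate. The region at 9126227 to 9126570, 938 bp upstream of the internal 5′ end of T24H10.7d, had a pooled signal of 19.1 and rank 1852, with rank 540 in replicate 1 and 28862 in replicate 2. The intronic region at 9118995 to 9119338 had 17.2 and rank 2981, with rank 474 in replicate 2 and no match in replicate 1. The region at 9132323 to 9132666, past the 3′ end in an intron of C16D2.1, had 18.6 and rank 2102, with ranks of 10342 and 6291. At the 5′ end of T24H10.7c, the most downstream of the 9, replicate 1 had a region of rank 1022 that the pooled list does not hold. It also had an intronic region of rank 663 and signal 14.5, 1150 bp downstream of the 5′ end of T24H10.7a, with no pooled counterpart.

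Exact AP-1 sites were frequent around jun-1. Its window held 11, or 3.78 per 10 kb, against 0.955 per 10 kb in the genome and a median of 1 per window over all genes. Only 0.0350% of protein-coding genes had as many sites and 1.06% were as dense. Of the 11, 1 lay within 100 bp of a pooled summit, that of the gene's highest region, against 1.18% of the 9580 sites of the genome, and 8 were intronic. The printed pair, at 220 and 123 bp upstream of the 5′ end of T24H10.7d, lay 81 and 16 bp from the summit of a replicate 2 region of rank 11416 and at least 620 bp from any replicate 1 summit. The map of the jun-1 locus shows the sites beside the regions.

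**Figure D3:**
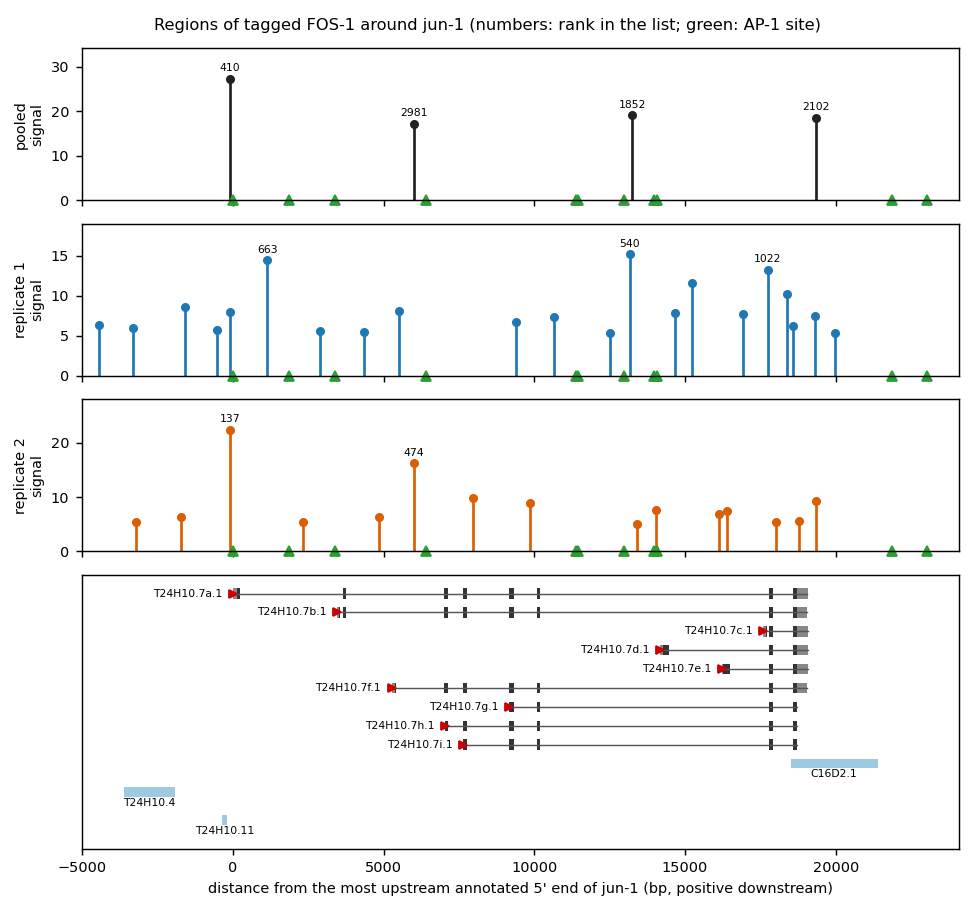
Authors' signal of each region around jun-1 in the pooled, replicate 1 and replicate 2 lists against distance from its most upstream 5′ end in bp, with its 9 transcripts (red arrowheads at the 5′ ends) and neighbouring genes in blue. Green triangles mark the 11 exact AP-1 sites; the region at the upstream 5′ end ranks 410 in the pooled list and 137 in replicate 2, and 8637 in replicate 1.

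crh-1 encodes the worm CREB protein, studied in memory and metabolism. The gene (chromosome III, 11657767 to 11693981, plus strand) has 7 transcripts with 7 different 5′ ends and held 5 pooled regions. Its highest lay at the start of the short transcript Y41C4A.4f, 31745 bp downstream of the most upstream 5′ end, and the CRE consensus there is printed with its surroundings in the 5′ UTR, in capitals, on the plus strand.
crh-1 f CRE, chrIII:11689579-11689608: tcgacaggaatTGACGTCActttttttctc

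This region, at 11689461 to 11689804, was the first outside the IDR set, at rank 249 with a signal of 31.06 against 31.07 for the region of rank 248. Its −log10 q was 1.47. It ranked 124 in replicate 1 with a signal of 21.6 and 1020 in replicate 2 with a signal of 13.9. The summit was 121 bp downstream of the 5′ end and the CRE 39 bp before it. The match was the only CRE among the 24 member regions, and 0.822% of pooled regions (95% exact interval 0.551 to 1.18) held one.

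A further 2 pooled regions of crh-1 lay past its 3′ end. The one at 11694090 had a signal of 26.4 and rank 470, with ranks of 321 and 7538, and its summit was in the non-coding gene Y41C4A.29. The one at 11695083 had 23.6 and rank 728, with ranks of 922 and 1274, and was 20 bp upstream of the neighbouring gene Y41C4A.22. Within the gene, the region at 11689675 had 20.1 and rank 1485 and ranked 1089 and 19191 in the replicates. The region at 11674886 had 18.3 and rank 2226. It lay in the promoter of the internal 5′ ends of transcripts a, b and d, and it ranked 754 in replicate 1 with no match in replicate 2. Of the 5 regions, 4 ranked higher in replicate 1 and the fifth was matched there alone.

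atfs-1, skn-1, zip-1 and atf-7 had 1 promoter region each with a run of alternating G and A. ATFS-1 drives the mitochondrial unfolded protein response, SKN-1 is the worm Nrf protein of the oxidative stress response, ZIP-1 acts in the response to intracellular pathogens, and ATF-7 is a target of the p38 MAP kinase in immunity. The stretches within 100 bp of these summits are printed on the strand of each gene, cut where an annotated UTR begins. Capitals mark GAGAGAG or, on the other strand, CTCTCTC, a motif looked for after the sequences had been seen.
atfs-1 upstream, chrV:14193557-14193662, plus strand: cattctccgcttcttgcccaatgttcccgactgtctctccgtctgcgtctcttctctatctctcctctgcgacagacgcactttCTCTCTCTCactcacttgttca
skn-1 c upstream, chrIV:5655900-5656100, minus strand: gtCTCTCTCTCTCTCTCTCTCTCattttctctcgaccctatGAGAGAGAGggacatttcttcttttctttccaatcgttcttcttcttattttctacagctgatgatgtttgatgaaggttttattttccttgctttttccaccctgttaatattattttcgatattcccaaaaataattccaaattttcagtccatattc
zip-1 b.3 upstream, chrIII:12335419-12335619, plus strand: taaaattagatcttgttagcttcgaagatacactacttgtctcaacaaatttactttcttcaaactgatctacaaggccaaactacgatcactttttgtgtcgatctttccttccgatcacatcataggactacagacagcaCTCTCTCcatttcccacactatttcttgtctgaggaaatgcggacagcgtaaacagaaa
atf-7 c upstream, chrIII:4494738-4494938, minus strand: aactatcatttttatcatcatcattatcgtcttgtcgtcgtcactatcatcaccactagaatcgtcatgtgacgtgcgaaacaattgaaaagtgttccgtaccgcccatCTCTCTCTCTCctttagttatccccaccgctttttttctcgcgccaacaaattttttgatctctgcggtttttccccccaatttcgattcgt

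GAGAGAG was present in 4 of the 12 member promoter regions (33.3%), against 8.68% of the 1406 pooled promoter regions and 7.77% of all pooled regions. The motif was picked from these same member sequences, so nothing is read from the higher share. The 12 also include both overlapping zip-2 regions, of ranks 55 and 330. No exact AP-1 site lay within 100 bp of the 4 summits with GAGAGAG. The nearest was at atfs-1, 147 bp from the summit, in an intron.

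The atfs-1 region (chromosome V, gene 14193663 to 14197700, plus strand) at 14193485 to 14193828 had a pooled signal of 30.3, rank 269 and a −log10 q of 1.37. Its summit lay 6 bp upstream of the most upstream 5′ end, that of ZC376.7b.2. The replicate 1 rank was 280 with a signal of 17.7, and the replicate 2 rank was 3486 with a signal of 10.7. No other pooled region fell in the atfs-1 window, although replicate 2 had a higher region, of rank 1949, 935 bp upstream of the same 5′ end.

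The skn-1 region (chromosome IV, gene 5651039 to 5660384, minus strand) at 5655828 to 5656171 had a signal of 22.4 and rank 922. It lay 395 bp upstream of the internal 5′ end of T19E7.2c, the isoform known from the intestine, inside the long transcript T19E7.2a. The replicate 2 rank was 1239 with a signal of 13.4, and the replicate 1 rank was 4630 with a signal of 9.39 and a summit 192 bp away, near the edge of what counted as a match. The other skn-1 region had 16.7 and rank 3385 and was matched in replicate 1 only, at 2574. Its summit lay in an intron of skn-1 and also in an intron of clec-178, a separate gene on the opposite strand. Replicate 2 also had regions 382 bp upstream of T19E7.2b (rank 2496) and 217 bp upstream of T19E7.2d (rank 6003), which the pooled list does not hold.

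The zip-1 region (chromosome III, gene 12333745 to 12345384, plus strand) at 12335347 to 12335690 had a signal of 21.1 and rank 1216, 124 bp upstream of the internal 5′ end of Y75B8A.35b.3. It ranked 986 in replicate 1 with a signal of 13.4 and 19029 in replicate 2 with a signal of 6.33. In replicate 2 the best region of the gene was a different one, of rank 574 and signal 15.6, 210 bp downstream of the most upstream 5′ end and 135 bp from the gene's only exact AP-1 site. The replicates thus placed their best zip-1 region near different 5′ ends, and that of replicate 2 lay just outside the promoter window. The neighbouring bZIP gene zip-12 has the region of rank 1216 in its window as well.

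atf-7 (chromosome III, 4491627 to 4499045, minus strand) had 4 pooled regions, none above rank 852. The highest, at 4487760 with a signal of 22.7, lay past the 3′ end, nearer to the 5′ end of cpg-1, which encodes a chondroitin proteoglycan of the eggshell, and ranked 826 and 2372 in the replicates. The region at 4494666 to 4495009, 388 bp upstream of the internal 5′ end of C07G2.2c, had 19.4 and rank 1727, with ranks of 2042 and 10080 at the nearest replicate summits. A further replicate 1 summit, 139 bp from it and 527 bp upstream of C07G2.2c, ranked 694. The region at the upstream 5′ ends had 17.3 and rank 2927, with ranks of 17085 and 3899. An intronic region had 18.2 and rank 2284, with ranks of 9734 and 1025. Within 200 bp of the 4 summits, the best ranks were thus 694 in replicate 1 and 1025 in replicate 2.

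**Figure D4:**
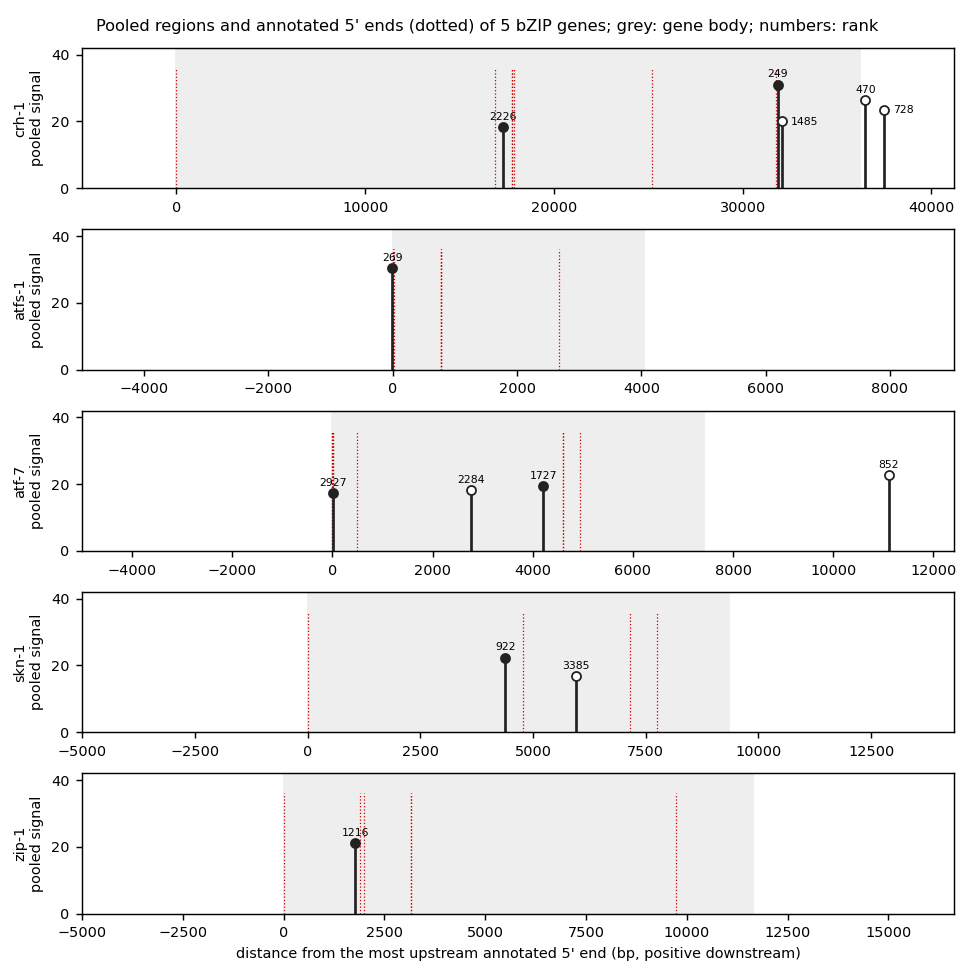
Pooled signal of each region of crh-1, atfs-1, atf-7, skn-1 and zip-1 against distance from the most upstream annotated 5′ end in bp, with annotated 5′ ends as dotted red lines, the gene body in grey and ranks as numbers. Filled circles are promoter regions and open circles are not; for crh-1, skn-1 and zip-1 every filled circle lies at an internal 5′ end, and for atfs-1 at the upstream one.

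zip-10 encodes a bZIP factor studied in the response of adults to cold. Its only pooled region (chromosome V, 11649888 to 11650231) had a signal of 22.0 and rank 1011 and lay on the 3′ side, 702 bp downstream of the gene's 5′ end and in the 3′ UTR of skp-1, a neighbour on the opposite strand. It ranked 742 in replicate 1 with a signal of 14.2 and 17265 in replicate 2 with a signal of 6.59. A loose AP-1 match, in capitals on the strand of zip-10, lay 17 bp from the summit.
zip-10 3′ side, chrV:11650063-11650091, minus strand: tgacacggtttTGATTCAtctttgtgcaa

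ces-2 and cebp-2 ranked lowest of the 10 in the pooled and replicate 1 lists, while in replicate 2 zip-10 ranked below both. ces-2 encodes a PAR-type bZIP factor that specifies the death of a neuronal sister cell, and its only pooled region had a signal of 17.3 and rank 2867. That region lay past the 3′ end, 147 bp upstream of ZK909.6, and was matched in replicate 2 only, at rank 3537. cebp-2, which encodes a C/EBP-type factor, had no region in the pooled list. Its best regions ranked 19937 in replicate 1 and 8772 in replicate 2. Relative to other genes, 88.6% had a better region than cebp-2 in replicate 1 and 62.7% in replicate 2, and the same shares for ces-2 were 89.8% and 33.6%.

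Set among all 19973 genes, the share with a better pooled region was 0.606% for zip-2, 3.46% for crh-1, 3.70% for atfs-1 and 5.23% for jun-1. For zip-2 it was 0.441% in replicate 1 and 0.290% in replicate 2, so its standing was alike in both. For crh-1 it was 1.69% and 10.8%, for atfs-1 3.50% and 20.8%, and for jun-1 6.60% and 1.58%. For zip-10 it was 8.82% and 84.3%, the widest gap among the 10. Counting genes whose best region was among the 248 highest of 1 list, replicate 1 gave zip-2 and crh-1, against 3.16% of genes. Replicate 2 gave zip-2 and jun-1, against 3.06%.

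A replicate summit within 200 bp was found in both lists for 20 of the 24 member regions (83.3%), against 73.9% of all pooled regions. Of the 20, 14 ranked higher in replicate 1 and 6 in replicate 2, with median ranks of 874 and 2853.5. With the match shared by the zip-2 regions of ranks 55 and 330 counted once, 13 of 19 (68.4%) ranked higher in replicate 1, against 1303 of the 2605 matched pooled regions, with the other 1302 higher in replicate 2. Where several replicate summits lay within 200 bp, the nearest was taken. Both lists are long, so a match alone says little, and 13 of the 24 were matched within the first 10000 regions of each list. The plot of replicate ranks shows how far single regions lie from equal rank.

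**Figure D5:**
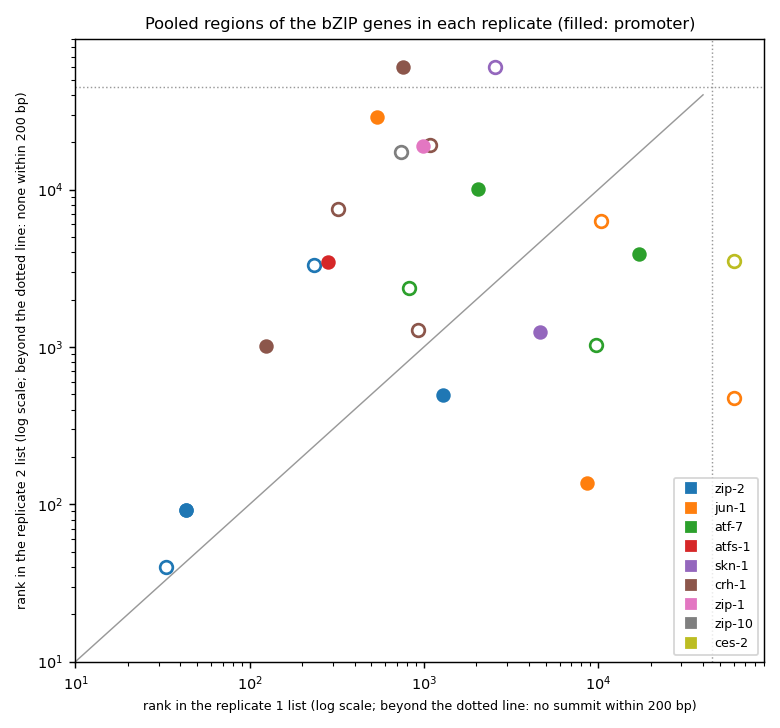
Rank of each of the 24 pooled member regions in the replicate 1 list (horizontal) and the replicate 2 list (vertical), both on log scales, coloured by gene, filled for promoter regions; 2 filled zip-2 points coincide at 43 and 92. The grey diagonal is equal rank and points beyond a dotted line had no summit within 200 bp in that list; only the zip-2 points at 43 and 92 and at 33 and 40 are under rank 100 in both.

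More of the members' promoter regions lay at internal than at upstream 5′ ends. Of the 12 member promoter summits, 8 (66.7%), in zip-2, jun-1, atf-7, skn-1, crh-1 and zip-1, were in the promoter window of an internal 5′ end only. Over all protein-coding genes with more than 1 annotated 5′ end, this held for 249 of 739 promoter summits (33.7%). The 8 member summits include those of the overlapping zip-2 regions of ranks 55 and 330, which are not separate evidence. Of the others, those of jun-1 and zip-1 ranked far apart in the replicates, and 1 of crh-1 was matched in replicate 1 only. The members were chosen with these lists known, so nothing is read from the higher share. More than 1 annotated 5′ end was recorded for 7 of the 10 members, against 26.3% of protein-coding genes, and the number of 5′ ends per gene was not matched in this comparison. By place, 13 of the 24 summits (54.2%) were intronic, against 29.7% of all pooled summits, and 6 (25%) were intergenic, against 48.1%. Coding exons held 2 and 5′ UTRs 2, and 1 was in a 3′ UTR. Member regions were gathered in and around gene bodies, while the comparison takes every pooled summit of the genome. The shares by place are therefore not like for like, and nothing is read from their difference.

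Consensus sites were scarce at the summits. Within 100 bp, TGACTCA was found at 1 of the 24 member regions (4.17%), against 3.01% of all pooled regions (95% exact interval 2.47 to 3.62) and 8.06% of the IDR set. TGANTCA, which contains it, was found at 4 (16.7%), those of jun-1, zip-2, zip-10 and ces-2, against 7.94% (95% exact interval 7.07 to 8.88). TTGCGCAA and TTACGTAA, as well as the looser TTNCGCAA, were found at 0 of the 24, against 0.482%, 0.255% and 4.56% of pooled regions. A count of 24 regions is too small to tell such shares from those of the list. Seen from the sites, the members' windows held 24 exact AP-1 sites, 1.23 per 10 kb, of which 1 lay within 100 bp of a pooled summit. In the genome this held for 113 of 9580 sites (1.18%). Besides the 11 of jun-1, crh-1 had 4, cebp-2, zip-10 and ces-2 had 2 each, zip-2, atfs-1 and zip-1 had 1 each, and atf-7 and skn-1 had 0.

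By the ranks of their best promoter region in the replicate lists, 43 and 92 for zip-2, the closest genes among 4183 compared were kin-14 (35 and 69), ins-39 (28 and 85) and srz-62 (32 and 64). kin-14 encodes a tyrosine kinase, ins-39 an insulin-like peptide and srz-62 a chemoreceptor of the serpentine class. The distance in log10 rank over the 2 lists was 0.154, 0.189 and 0.203.

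Beside these 10, the annotation holds 19 of 20 other bZIP symbols looked up. That list too was made with earlier results of these data known, so nothing is read from its counts. An IDR region fell within 5000 bp of 3 of the 19, cebp-1, atf-2 and zip-5, against 3.46% of protein-coding genes. Only cebp-1, whose product acts in axon regrowth, had one in a promoter, against 0.806%. The cebp-1 IDR regions ranked 2 and 215 in the pooled list, and a weaker pooled region ranked 2545. The first, with a signal of 131.9, held 2 exact AP-1 sites within 100 bp of its summit. It ranked 2 in replicate 1 and 17 in replicate 2, or 2 among nuclear regions. The second, 186 bp upstream with a signal of 32.5, held a CRE. It ranked 2065 in replicate 1 and 215 in replicate 2, or 197 among nuclear regions. The zip-5 region had a signal of 46.5 and rank 73, with ranks of 171 in replicate 1 and 88 in replicate 2, or 71 among nuclear regions. Its summit lay 235 bp downstream of an internal 5′ end, just outside the promoter window. The atf-2 region (33.3, rank 199; 182 and 1040) was 4654 bp upstream and nearer to mak-1, which encodes a MAP kinase-activated kinase. In the pooled list, 11 of the 19 had a region within 5000 bp, against 33.8% of genes, and 5 in a promoter, against 7.67%. Besides cebp-1 these 5 were atf-6 (rank 569) and xbp-1 (1131), both of the endoplasmic reticulum stress response, crh-2 (986), a CREB relative, and zip-4 (1350). Of all 29 genes, cebp-1 and zip-2 were thus the only ones with an IDR promoter region. fos-1 itself, the gene that was tagged, had no region within 5000 bp in any of the lists. No region at all was found in either replicate list for 267 genes (1.34%), and for 2 of the 633 genes at least as long as fos-1 (0.316%). The replicate lists hold background as well, so these 0 counts were not read as a lack of occupancy, and their cause was not tested. The fos-1 window held 9 exact AP-1 sites.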

How the data were processed

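ChIP-seq peak lists of tagged FOS-1 in whole L4 larvae were used, with replicate numbers 1 and 2 from the labels and no grouping beyond that. The authors deposited each region with a signal value, whose scale is not given, and a −log10 q-value, both used only to rank and describe regions within a list. Not given in the sources used here: the peak caller, aligner and IDR threshold. By the labels, the lists are on builds ce10 and ce11. Only the ce11 lists were used, with the ce11 reference genome and Ensembl annotation release 115, both for coordinates and sequences. Lists on ce10 were not used here, since no annotation of that build was at hand.

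Regions were ranked by signal within each list. A gene window was the gene body and 5000 bp to each side, and a promoter spanned 1000 bp before and 200 bp after any annotated 5′ end. Motifs were searched on both strands within 100 bp of a summit, and replicate summits matched within 200 bp. Only counts, shares and exact Clopper-Pearson 95% intervals, which cover counting error only, were computed, and no test was made, since there was 1 group. The 10 genes, the other bZIP list and the motifs were chosen with earlier results of these data known. The text names the 10 genes, other bZIP genes with an IDR region or a promoter region at rank 1764 or better in the pooled list, and the 3 genes nearest to zip-2 in replicate promoter ranks. Neighbouring genes, fos-1 and other bZIP genes were named for their position, after the values were seen. The counting steps recovered all positions planted when tested on simulated data. Python 3.11.15, numpy 2.4.6, pandas 2.3.3, scipy 1.17.1 and matplotlib 3.10.9 were used.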

Additional observations from a re-analysis of the deposited data

Results flagged for a closer look

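The replicate 2 list held 18 regions on mitochondrial DNA, where none of the genes lie, while the replicate 1, pooled and IDR lists held 0. This is a count in single lists, with no test. They take 18 of the 248 highest places of that list, so the rank of the zip-2 intronic region moves from 92 to 75 and that of the jun-1 upstream region from 137 to 120 when nuclear regions alone are ranked. Their part in the difference between the replicates was not tested.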

How the results depend on the processing

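Of 33 recomputed counts, 22 stayed within 1.5 times the count reported and 11 moved. With the 248 highest regions of a single replicate in place of the IDR set, the count of members rose from 1 to 2 without replicate 1 (zip-2 and jun-1), to 2 without replicate 2 (zip-2 and crh-1) and to 2 in the nuclear regions of replicate 2, an alternative chosen after seeing the data. Shares over all genes were, in that order, 3.06%, 3.16% and 3.29%, against 3.46% for the IDR set. The promoter counts were the same, against 0.646%, 0.656% and 0.706% of genes. Pooled counts ran from 7 to 9 within 5000 bp and from 5 to 7 in promoters, and the count in both replicate lists stayed at 1 throughout. The lowest pooled counts, from as many regions of replicate 2, stood beside 33.5% and 6.74% of genes. The main ones stood beside 33.8% and 7.67%. Matched regions numbered 12 within 100 bp, 21 within 500 bp and 13 in the first 10000 regions, fewer by construction, and regions with an AP-1 site 0 within 50 bp, 2 within 200 bp and 4 for TGANTCA. No paired analysis was possible because there is 1 group. Depth is unknown, so how far it limits the weak regions was not tested.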
